A study of Homo sapiens with 12 samples.

Results

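The protein-coding genes of human chromosome 19 whose symbol is ZNF followed only by digits were examined for H3K27me3 and for lysine succinylation in HepG2/C3A cells, a human hepatocellular carcinoma line. They were taken by symbol from the RefSeq gene table of GRCh38.p14, which gave 240 genes of the 20037 protein-coding genes in all. The other 1211 protein-coding genes of chromosome 19 served for comparison, and 237 genes with such symbols on other chromosomes were set beside them. Some of the 1211, among them KIR genes and LILRA3, were listed before PLPP2 at the very start of the chromosome. Their coordinates are probably those of alternate scaffolds, so their values may belong to another place. They were kept, and their effect on the shares and distances of the other genes was not tested. The libraries were made by CUT&Tag, in which an antibody directs a transposase to chromatin and the released fragments are sequenced. One antibody recognised histone H3 trimethylated at lysine 27 (H3K27me3), the mark laid down by Polycomb repressive complex 2. The other recognised succinylated lysine on any protein (Ksu). Cells were left as control, called a vehicle in the design text, or given 10 mM sodium succinate for 48 hours. Each pairing of antibody and treatment had 2 libraries labelled as biological replicates of this one line, so 8 of the 12 listed libraries entered. They are called control 1, control 2, succinate 1 and succinate 2, and values for 4 libraries are given in that order. The 4 IgG libraries were not used here, and whether the peaks were called against an IgG track is not given in the sources used here.

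Most zinc finger genes of this chromosome encode proteins with a row of C2H2 zinc fingers, which bind DNA, and often a KRAB domain at the other end. The KRAB domain recruits TRIM28, also called KAP1, which brings in the histone H3 lysine 9 methyltransferase SETDB1 and heterochromatin proteins, and many of these proteins silence transposable elements. The genes arose by repeated tandem duplication and lie in clusters, and the clusters themselves are known for a chromatin state rich in methylation of histone H3 at lysine 9. Methylation at lysine 27 is a different repressive system, best known at developmental regulators.

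A median ZNF gene body measured 23.1 kb, against 12.8 kb for the other genes of the chromosome. The shortest was ZNF580 with 2469 bp and the longest was ZNF536 with 487995 bp. Runs of at least 5 ZNF genes with gaps of no more than 500 kb formed 10 clusters that held 228 of the 240, and 12 lay outside them. In chromosome order the clusters ran from ZNF554 to ZNF77 (5 genes), ZNF414 to ZNF846 (13), ZNF653 to ZNF791 (25), ZNF101 to ZNF254 (37) and ZNF302 to ZNF792 (5) to ZNF565 to ZNF573 (24), ZNF575 to ZNF180 (23), ZNF175 to ZNF331 (39), ZNF628 to ZNF835 (16) and ZNF264 to ZNF446 (41). Their spans ranged from 125 to 4462 kb and made up 24.5% of the chromosome. Every measurement rests on peak calls. A library contributed 5531 to 19133 H3K27me3 peaks or 76702 to 629903 Ksu peaks, and read depth is unknown. The highest signals of the peaks within a library were whole multiples of 1 step, within 0.02 of a whole number. Total signals are given in the same steps. By total signal the weakest called peak, the floor, held 51892 to 330250 steps for H3K27me3 and 49.0 to 8977 steps for Ksu. The cover of a gene is the percent of its body under peaks, and a gene counted as overlapped from 1 bp. How reads that match near-identical ZNF paralogs equally well were placed is not given in the sources used here, so a peak over 1 copy may hold reads of another. If such reads were left out, peaks over these genes could be missed. The part of this in the low H3K27me3 counts and long distances below was not tested.

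Promoter sequence from RefSeq (GRCh38.p14) was matched for 210 of the 240 ZNF genes. The 250 bases before the annotated start are shown for the pair of ZNF genes whose start lay under H3K27me3 in every library, ZNF536 (chr19:30225342-30225591, plus strand) and ZNF574 (chr19:42068227-42068476, plus strand). They are followed by the pair with the highest mean Ksu cover, ZNF671 (chr19:57727625-57727874, minus strand) and ZNF792 (chr19:34964230-34964479, minus strand), neither of which met an H3K27me3 peak. All are written 5′ to 3′ on the gene's strand, with each CG pair in capitals.
ZNF536: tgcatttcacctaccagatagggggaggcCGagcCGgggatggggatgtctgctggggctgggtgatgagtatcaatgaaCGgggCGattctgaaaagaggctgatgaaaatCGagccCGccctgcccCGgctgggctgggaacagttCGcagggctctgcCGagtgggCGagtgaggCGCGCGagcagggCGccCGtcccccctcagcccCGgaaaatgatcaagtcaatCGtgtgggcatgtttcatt
ZNF574: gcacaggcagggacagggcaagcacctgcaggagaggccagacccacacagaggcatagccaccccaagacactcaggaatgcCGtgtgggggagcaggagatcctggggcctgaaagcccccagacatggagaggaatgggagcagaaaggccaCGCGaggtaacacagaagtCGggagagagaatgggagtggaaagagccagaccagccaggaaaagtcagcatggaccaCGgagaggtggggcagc
ZNF671: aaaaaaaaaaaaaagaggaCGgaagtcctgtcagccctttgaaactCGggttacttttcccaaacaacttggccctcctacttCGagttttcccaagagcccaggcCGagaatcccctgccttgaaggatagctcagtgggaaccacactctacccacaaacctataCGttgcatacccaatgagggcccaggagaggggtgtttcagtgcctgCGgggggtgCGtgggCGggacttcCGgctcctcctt
ZNF792: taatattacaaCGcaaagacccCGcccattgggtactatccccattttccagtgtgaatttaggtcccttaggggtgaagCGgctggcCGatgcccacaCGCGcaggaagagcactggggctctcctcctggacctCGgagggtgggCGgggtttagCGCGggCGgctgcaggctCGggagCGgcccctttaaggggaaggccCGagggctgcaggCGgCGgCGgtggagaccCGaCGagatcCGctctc
The sequences held 17, 5, 9 and 20 CG pairs in that order, so the stretches under H3K27me3 were not set apart from the others by their number of CG pairs. The ZNF574 stretch lies inside the annotated body of GRIK5, which encodes a kainate receptor subunit.

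H3K27me3 peaks were rare over the ZNF genes. A peak overlapped 3, 2, 3 and 3 of the 240 ZNF gene bodies in the 4 libraries, which is 1.25%, 0.833%, 1.25% and 1.25%. Over the other genes of chromosome 19 the share was 22.8%, 11.3%, 20.2% and 16.2%, and over all protein-coding genes it was 23.4%, 13.6%, 19.1% and 15.5%. Genes with ZNF symbols on other chromosomes lay between, with 11.4%, 6.33%, 8.86% and 6.33%. In any library 4 ZNF genes were overlapped (1.67%), against 308 of the 1211 other genes (25.4%) and 25.0% of all genes. In every library 2 were overlapped (0.833%), against 127 others (10.5%) and 12.3% of all genes. The median cover was 0 in each library for the ZNF genes, for the other genes of the chromosome and for all genes.

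**Figure D1:**
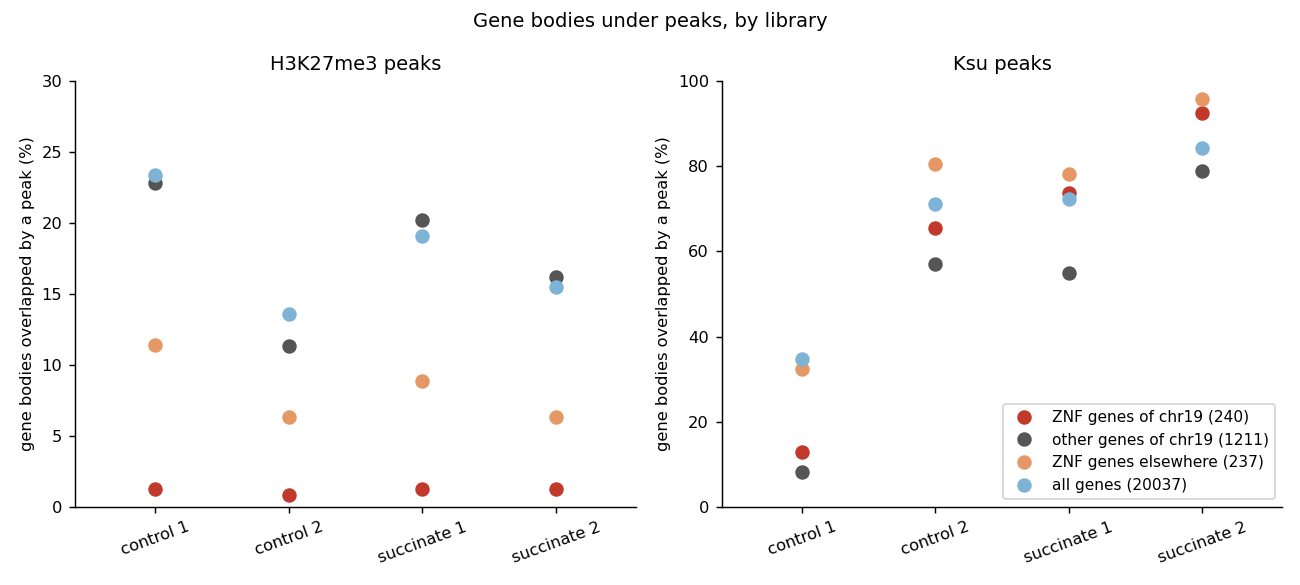
Percent of gene bodies overlapped by an H3K27me3 peak (left) or a Ksu peak (right) in each library (horizontal axis), with 1 point for each gene group and the number of genes in brackets. The ZNF genes of chromosome 19 sit between 0.833% and 1.25% for H3K27me3, below every other group in all 4 libraries, while for Ksu they range from 12.9% to 92.5% with the library.

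By bases the gap to the other genes of the chromosome was of the same kind. H3K27me3 peaks covered 1.69%, 0.388%, 0.918% and 0.225% of the summed ZNF gene bodies, against 11.0%, 5.71%, 11.2% and 9.10% for the other genes of the chromosome. The ratio of the first to the second was 0.154, 0.0681, 0.0819 and 0.0247. On the log2 scale it averaged -3.88 ± 1.10 (SD, n = 4 libraries), a 14.7-fold lower cover. ZNF536 alone, the longest of the genes, carried most of the covered bases, 103264, 21928, 46513 and 9928 bp. Without it the mean log2 ratio to the other genes of the chromosome was -5.92 ± 0.60 (SD, n = 4), an alternative chosen after seeing the data. The low count was also seen among genes of like length. Among genes of 10 to 50 kb, 2 of 188 ZNF genes (1.06%) met a peak in any library, against 162 of 636 others (25.5%) and 10 of 150 ZNF genes elsewhere (6.67%). Among genes over 50 kb the counts were 2 of 24 and 37 of 104, and under 10 kb they were 0 of 28 and 109 of 471.

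Membership of a cluster separated the ZNF genes further. Of the 228 in clusters, 0, 0, 0 and 1 were overlapped in the 4 libraries, and the single case was ZNF653 at the edge of its cluster. The 12 outside clusters had 3, 2, 3 and 2 overlapped, namely ZNF536, ZNF574 and, in part of the libraries, ZNF541. The values of these 4 genes follow in turn.

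ZNF536 (chr19:30225592-30713586, plus strand) encodes a zinc finger repressor best known from the nervous system. Its cover was 21.2%, 4.49%, 9.53% and 2.03%, from 18, 2, 6 and 1 peaks. Both replicate 1 libraries were above both replicate 2 libraries, and the treatments overlapped. The peak over the gene start was called in every library and ended 9.96, 9.96, 9.93 and 9.93 kb past the start, while its upstream edge lay at -6.25, -1.47, -6.26 and -9.04 kb. All 300 bases from 250 before to 50 after the start were covered in every library. Near the far end of the gene a peak began 442.6 kb past the start in control 1 and succinate 1 and 442.7 kb past it in control 2, and none was called there in succinate 2. The start peak held 366115, 355631, 497165 and 741868 steps. A called peak cannot lie below the floor of its own library, but these totals were also above the highest floor of the 4 libraries, 330250 steps. The other peaks of control 1 held 55609 to 147022 steps, below the floor of 211123 steps in control 2.

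ZNF574 (chr19:42068477-42081552, plus strand) had a cover of 30.9%, 40.8%, 43.2% and 43.3%. These are 4041, 5332, 5655 and 5660 bp, and both succinate libraries were above both control libraries. A single peak of 22530, 37675, 33192 and 23450 bp gave these values. It lay mostly over GRIK5, whose body overlaps the start of ZNF574 and was covered to 76.8%, 73.2%, 71.0% and 72.7%, and it ended 4.04, 5.33, 5.65 and 5.66 kb past the ZNF574 start. The window around the start was covered in full in every library.

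ZNF541 (chr19:47520690-47573309, minus strand), a gene of male meiosis, had a cover of 22.0%, 0%, 23.3% and 0%. Only the replicate 1 library of each treatment held peaks, 2 in each, lying between 25.1 and 38.2 kb from the start in control 1 and between 25.1 and 39.0 kb in succinate 1. They held 90188 and 106069 steps in control 1 and 193972 and 163235 in succinate 1. All 4 totals were below the floors of the replicate 2 libraries, 211123 and 330250 steps, and the part of that difference in the pattern was not tested. ZNF653 (chr19:11483429-11505839, minus strand) was overlapped in succinate 2 alone, by 189 bp at its 3′ end (0.843%). That peak of 12920 bp held 367397 steps against a floor of 330250 and lay over ELAVL3, a neuronal RNA-binding protein gene covered to 62.6%, 0%, 69.0% and 34.8%.

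**Figure D2:**
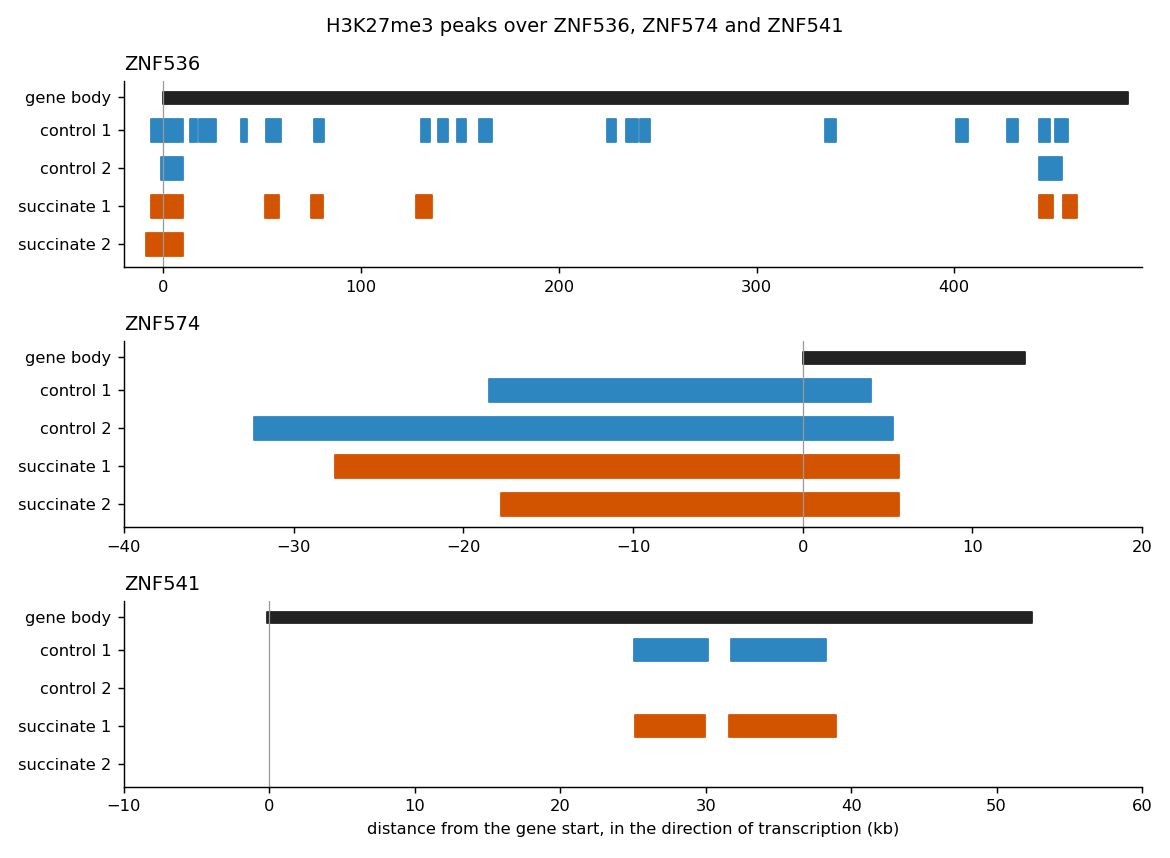
H3K27me3 peaks (coloured bars, 1 row for each library, blue for control and orange for succinate) over ZNF536, ZNF574 and ZNF541, against the distance from the gene start in kb in the direction of transcription, with the gene body in black. The ZNF536 start peak and the ZNF574 peak appear in all 4 rows, and the ZNF541 peaks in the replicate 1 rows.

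The ZNF genes also lay far from H3K27me3. The median distance from a ZNF gene body to the nearest peak was 482, 817, 507 and 722 kb, against 31.0, 109, 38.0 and 63.0 kb for the other genes of the chromosome. ZNF genes on other chromosomes had 68.8, 216, 115 and 278 kb. Within 100 kb of a peak were 37, 19, 27 and 19 of the 240 ZNF genes, compared with 77.4%, 48.2%, 74.1% and 61.0% of the other genes. Distances depend on how many peaks a library lists on this chromosome, which was 532, 149, 365 and 192, and neighbours in a cluster share their nearest peak. Clusters differed widely. Members of the ZNF264 to ZNF446 cluster at the end of the long arm had medians of 1510, 1676, 1522 and 2210 kb, and the ZNF101 to ZNF254 cluster beside the centromere had 1343, 1749, 1749 and 1749 kb. The 5 genes from ZNF554 to ZNF77 had 89.5, 89.2, 89.1 and 89.0 kb.

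**Figure D3:**
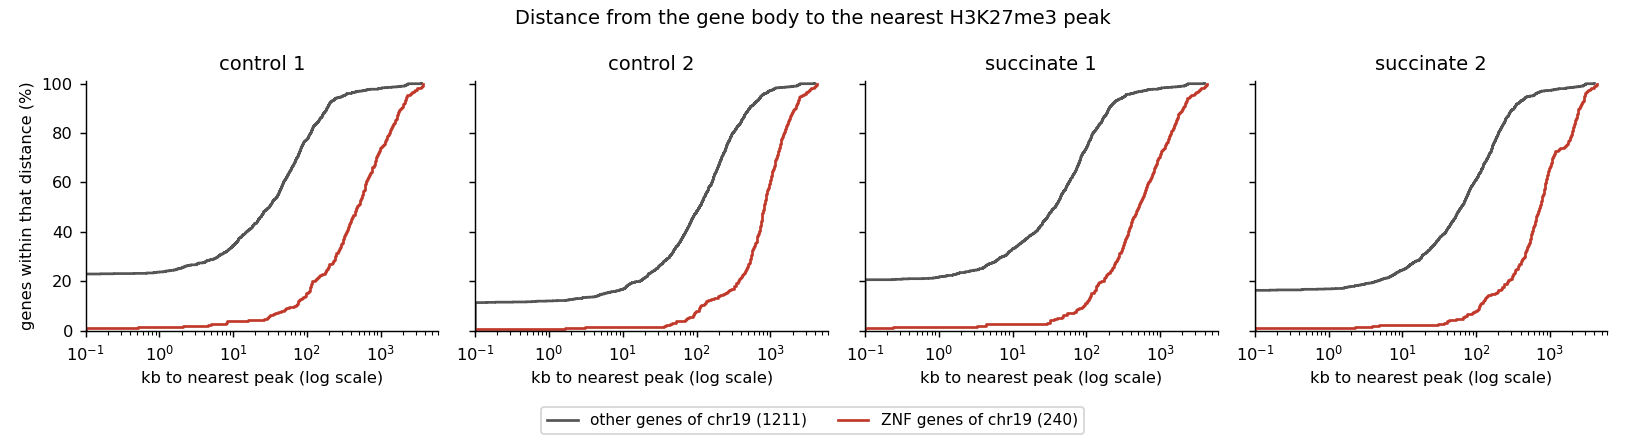
Cumulative percent of genes (vertical axis) whose body lies within a given distance of the nearest H3K27me3 peak (horizontal axis, kb, log scale, with overlapping genes set at 0.1 kb), 1 panel for each library, for the 240 ZNF genes (red) and the 1211 other genes (grey) of chromosome 19. The ZNF curve runs to the right of the other in each panel, with medians of 482 to 817 kb against 31.0 to 109 kb.

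Stretches of at least 1 Mb without an H3K27me3 peak in any of the 4 libraries numbered 6 on this chromosome. Each held ZNF genes. They summed to 16.8 Mb, or 28.7% of the chromosome, and contained 185 of the 240 ZNF genes (77.1%) and 97 of the 1211 others (8.01%). The longest, chr19:20162180-27894562, ran over 7.73 Mb, held the 30 ZNF genes from ZNF486 to ZNF254 and only 2 other protein-coding genes, and includes the centromere. The next, chr19:56209505-58573573, held 48 ZNF genes from ZNF582 to ZNF446 and 34 others over 2.36 Mb.

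Cluster spans as a whole had little of the mark, 0.971%, 0.398%, 0.816% and 0.298% of their bases, compared with 11.2%, 5.32%, 11.3% and 8.86% of the rest of the chromosome. Except for the 189 bp of ZNF653, the covered bases inside the spans lay outside the ZNF gene bodies. Of the 95 other protein-coding genes inside the spans, 16 met a peak in any library (16.8%) and 2 in all 4 (2.11%), SCGB2B2 and SSC5D. Outside the spans the counts were 292 of 1116 (26.2%) and 125 (11.2%). Of 25 zinc finger genes of other naming families on the chromosome, such as ZSCAN and ZFP, 2 met a peak in any library and 0 in all 4. These were ZSCAN5B, covered to 59.3%, 0%, 99.9% and 0%, and ZSCAN5C, covered to 54.4% in control 1 alone. SCGB2B2, SSC5D and these 2 genes were singled out after their values were seen.

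At gene starts the picture was the same. The 300-base window around the start met an H3K27me3 peak in 2 of the 210 ZNF genes in every library (0.952%), ZNF536 and ZNF574. It did so in 15.5%, 7.18%, 14.8% and 12.0% of the 975 other genes of the chromosome with a window. CpG-rich windows, here those with at least 50% G and C and an observed to expected CG ratio of at least 0.6, are the usual sites of Polycomb recruitment. They made up 162 of the 210 ZNF windows (77.1%), 59.3% of the others and 63.4% of all windows. Among genes with a CpG-rich window, a peak touched the gene body in any library for 3 ZNF genes (1.85%) and for 105 others (18.2%). Among genes with any other window it did so for 1 of 48 ZNF genes (2.08%) and 152 of 397 others (38.3%). The low count among ZNF genes was thus seen in both classes. Over all genes the shares were 19.7% with a CpG-rich window and 30.8% with any other, so CpG-rich windows did not go with more overlap here.

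Some short letter patterns were searched in the windows on both strands, none of them contained in another. CCGGAAG, the core letters recognised by ETS factors, stood in 93 of the 210 ZNF windows (44.3%), in 13.4% of the other windows of the chromosome and in 14.2% of all 15842 windows. CCAAT stood in 52.9%, 37.3% and 36.4%, and TATAAA in 1.90%, 8.0% and 9.63%. GGGCGG, the core of the SP1 site, stood in 69.5%, 65.5% and 58.5%. In the printed stretches, CCGGAAG is found in ZNF671, CCAAT in ZNF671 and ZNF792, and GGGCGG in ZNF536, ZNF671 and ZNF792.

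Succinate was compared with control in these genes by overlap and by cover. With 2 libraries a treatment the exact two-sided permutation test has 6 arrangements and cannot give a p under 0.333, so no gene and no group was tested. For H3K27me3, 0 ZNF genes were overlapped in both succinate libraries and neither control library (0.279% of all genes were), and 0 in both control libraries and neither succinate library (0.145% of all genes). The cover was higher in both succinate libraries than in both control libraries for 1 ZNF gene, ZNF574, beside 3.71% of all genes, and lower for 0, beside 1.13%. After division by each library's cover of all gene bodies no ZNF gene was higher (3.42% of all genes) or lower (1.33%) in both. With the same number of peaks in each library, 5531, the counts were 1 higher (4.98% of all genes) and 1 lower (0.923%). The log2 ratio to the other genes of the chromosome differed between succinate and control by a mean of -1.19, against a pooled SD of 1.05 between replicates, and the treatments overlapped. With equal numbers of peaks the difference was -0.93 against a pooled SD of 0.53. With a common floor it was -0.93 against 0.13. In both of these settings each succinate library lay below each control library in this ratio. Under the common floor the log2 ratios were -5.10 and -5.34 against -4.35 and -4.24. With equal numbers the ZNF cover itself overlapped between treatments, at 0.1995% and 0.388% in control and 0.222% and 0.225% with succinate. The other genes of the chromosome had 5.85% and 5.51% in control, then 8.31% and 9.10%. The lower ratio with equal numbers thus does not show less H3K27me3 cover of the ZNF genes. The covers under the common floor are not given here. Without ZNF536 the difference in the log2 ratio was -0.19 against a pooled SD of 0.72. Among the strongest 50% of peaks it was 0.036 against 0.63. The difference thus kept neither its size nor its sign across these settings.

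Ksu peaks as deposited touched most ZNF genes in 3 of the 4 libraries. They overlapped 31, 157, 177 and 222 of the 240 gene bodies (12.9%, 65.4%, 73.8% and 92.5%). For the other genes of the chromosome the shares were 8.26%, 57.1%, 54.8% and 78.8%, and for all genes 34.8%, 71.1%, 72.2% and 84.4%. ZNF genes elsewhere had 32.5%, 80.6%, 78.1% and 95.8%. A Ksu peak in any library was found for 236 ZNF genes (98.3%), compared with 84.7% of the other genes and 90.0% of all genes. With 76702 peaks in each library, the number in the smallest, the count fell to 130 (54.2%), beside 39.1% of the other genes and 63.8% of all genes, so the ZNF share went from above that of all genes to below it. The 4 without any peak as deposited were ZNF443, ZNF524, ZNF865 and ZNF580, and the last, a gene of 2469 bp, is the shortest. In all 4 libraries 25 ZNF genes (10.4%) were overlapped, against 5.78% of the other genes, 29.5% of the ZNF genes elsewhere and 31.7% of all genes. With equal numbers this count was 3 (1.25%), beside 1.16% of the other genes and 16.5% of all genes. Without control 1, the library with the fewest peaks, the count as deposited was 119. Fewer libraries are then asked for a peak, so it can rise by construction, and the matching share of other genes is not given here.

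Ksu cover of the summed ZNF gene bodies was 0.521%, 2.57%, 4.21% and 11.1%. The other genes of the chromosome had 0.458%, 2.92%, 4.72% and 10.7%, so the ratio was 1.14, 0.880, 0.893 and 1.05. On the log2 scale the ratio averaged -0.025 ± 0.18 (SD, n = 4 libraries), which is within the spread between libraries. The succinate libraries differed from the control libraries in this ratio by -0.050 against a pooled SD of 0.22, and the treatments overlapped. The median ZNF gene was covered to 0%, 1.38%, 3.30% and 10.4%, compared with 0%, 1.39%, 1.87% and 8.55% for the other genes and 0%, 2.85%, 4.49% and 10.6% for all genes. Peaks within ZNF genes were narrow, with median widths of 1034, 410, 563 and 462 bp, near the 1005, 408, 601 and 446 bp of the other genes. The 0.5 kb before the start was covered to 0.9%, 5.3%, 4.5% and 7.5% in ZNF genes and to 0.8%, 2.6%, 3.9% and 6.2% in the others. In control 2 the value at ZNF starts was above both that of the other genes and the 2.57% of ZNF gene bodies, and in succinate 2 it was below the 11.1% of ZNF gene bodies. The start window met a Ksu peak in 2, 22, 14 and 34 of the 210 ZNF genes (0.952%, 10.5%, 6.67% and 16.2%). The shares were 0.923%, 4.62%, 5.64% and 10.9% for the other genes of the chromosome and 2.01%, 7.54%, 7.75% and 12.7% for all windows.

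**Figure D4:**
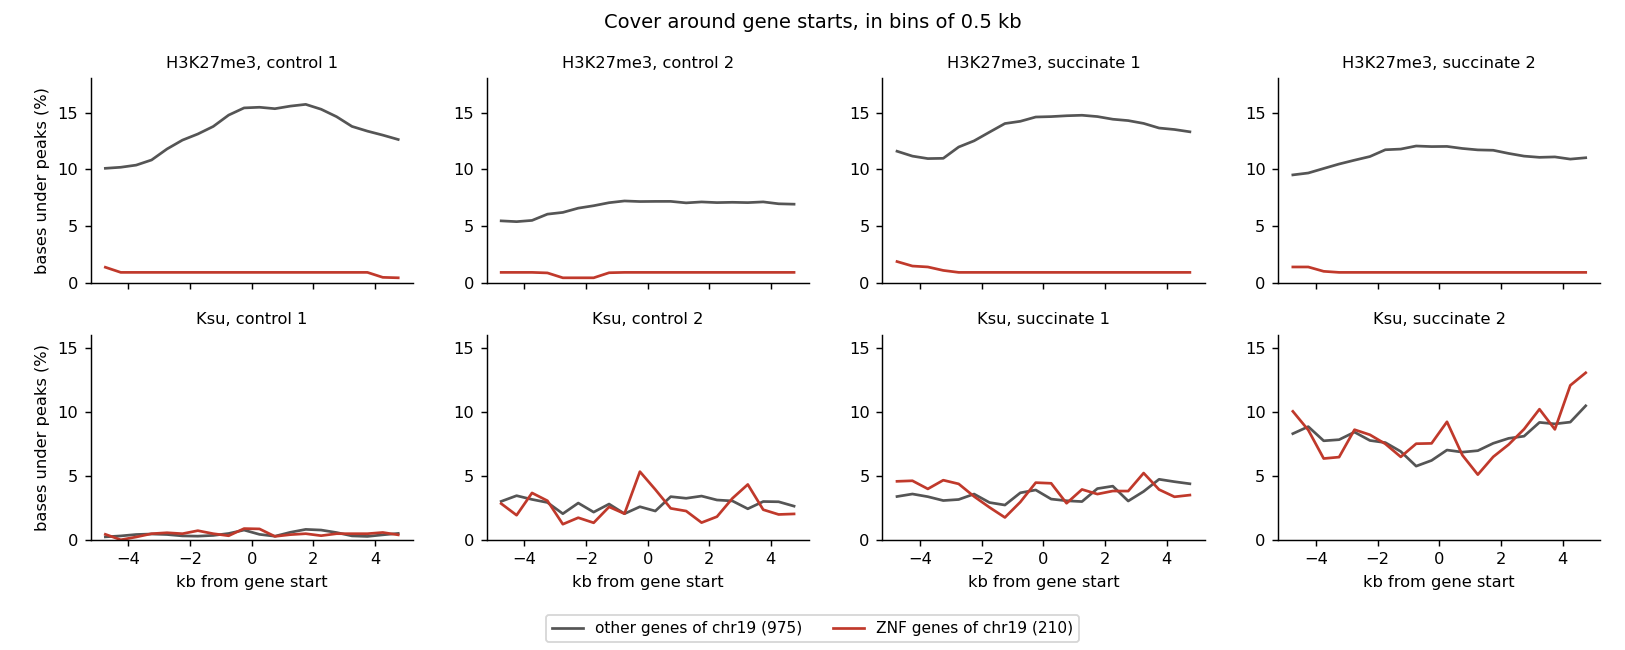
Percent of bases under H3K27me3 peaks (top) and Ksu peaks (bottom) in bins of 0.5 kb from 5 kb before to 5 kb after the gene start (horizontal axis, kb), 1 panel for each library, for 210 ZNF genes (red) and 975 other genes of chromosome 19 (grey). H3K27me3 cover of ZNF genes stays near 1% at the start, below the other genes in each panel, and the Ksu curves of both groups cross.

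Set against gene bodies on the other chromosomes, the ZNF genes had less Ksu cover in each library, with the lowest ratios in control. The ratio of their cover to that of the rest was 0.207 and 0.454 in control and 0.622 and 0.917 with succinate. The other genes of chromosome 19 had 0.182 and 0.515, then 0.697 and 0.878. With equal numbers of peaks in each library, 76702, the ZNF genes had 0.207 and 0.276, then 0.450 and 0.610, and the other genes 0.182 and 0.176, then 0.548 and 0.533. In all 4 of these comparisons both succinate libraries were above both control libraries, and ZNF genes and the other genes of the chromosome moved in the same direction. ZNF genes on other chromosomes moved that way as well. They had 0.717 and 0.782, then 0.993 and 0.992 as deposited. With equal numbers they had 0.717 and 0.685, then 1.02 and 0.939. The number of Ksu peaks in a library, 76702, 382019, 294568 and 629903, and its floor of 8977, 76.0, 4247 and 49.0 steps differed as well, and their part in the main ratios was not tested beyond the equal numbers.

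Overlap in both succinate libraries and neither control library was found for 44 ZNF genes (18.3%), against 11.5% of the other genes and 7.63% of all genes. The reverse pattern was found for 0 ZNF genes, beside 0.0998% of all genes. With equal numbers of peaks the counts were 17 (7.08%), beside 5.20% of the other genes and 5.64% of all genes, and 3 (1.25%), beside 0.923% of all genes. With a library left out, the first count as deposited was 138 without control 2 and 70 without succinate 1. It was 48 without control 1 and 48 without succinate 2. Fewer libraries are then asked for a peak, so the count can rise by construction, and the matching shares of other genes are not given here. For comparison, 29 ZNF genes (12.1%) were overlapped in both replicate 2 libraries and neither replicate 1 library, beside 13.5% of the other genes and 6.98% of all genes. In both replicate 1 libraries alone 1 was overlapped, beside 0.165% of all genes. Cover was higher in both succinate libraries than in both control libraries for 126 ZNF genes (52.5%), 37.7% of the other genes and 46.6% of all genes, and lower for 0, beside 0.484%. Succinate 2 also had the most peaks and control 1 the fewest. After division by each library's cover of all gene bodies, 102 ZNF genes (42.5%) were higher, beside 30.4% of the other genes and 30.2% of all genes. Lower were 4, beside 0.743% and 5.76%. With equal numbers of peaks 20 were higher (8.33%), beside 6.94% of the other genes and 15.8% of all genes. Lower were 4 (1.67%), beside 0.165% and 4.11%. The ZNF share with higher cover thus stood above the share of all genes after the division and below it with equal numbers. Its place relative to all genes depended on how the libraries were made comparable. Relative to the other genes of the chromosome it stood above in both settings.

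The ZNF genes with the largest cover among the 44 show how far apart the succinate libraries were. ZNF358, outside the clusters, was covered to 10.9% and 13.9% in succinate 1 and 2. ZNF418 had 7.53% and 17.2%, and ZNF528 had 4.16% and 20.4%. ZNF850 had 3.72% and 18.4%, and ZNF233 had 4.28% and 17.5%. All 5 were at 0 in both control libraries by the rule that picked them. In each of them succinate 2, the library with the most peaks, was above succinate 1. The 44 genes had a median length of 20.1 kb, between 7.15 and 42.1 kb, while the 25 genes overlapped in all 4 libraries had a median of 36.9 kb, between 10.5 and 488 kb.

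The highest mean Ksu cover belonged to ZNF671, a KRAB zinc finger gene reported as silenced by promoter methylation in several tumours, with 0%, 7.25%, 11.0% and 39.8%. Its body of 7874 bp (chr19:57719751-57727624) held 3130 covered bases in succinate 2, and both succinate libraries were above both control libraries. ZNF792 had 0%, 23.5%, 0% and 21.6%, and ZNF304 had 0%, 14.6%, 0% and 29.3%, so in these 2 genes the replicate 2 libraries were high and the replicate 1 libraries were at 0 under both treatments. ZNF667 had 1.5%, 0%, 9.49% and 32.2%, and ZNF835 had 0%, 4.18%, 9.47% and 27.1%, and in both the succinate libraries were above the control libraries. These genes were picked by their mean over the 4 libraries, and ZNF671, ZNF667 and ZNF835 were highest in succinate 2, the library with the most peaks. Their order is therefore not separate evidence of an effect of succinate, and 52.5% of ZNF genes and 46.6% of all genes showed it. All but ZNF667 were under 10 kb, where 1 narrow peak weighs more in percent. ZNF536 and ZNF574, the pair with H3K27me3 at the start, had Ksu covers of 1.19%, 6.27%, 10.1% and 13.6% and of 0%, 1.75%, 3.52% and 1.86%.

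Several genes were looked at after their values were seen. Of the 25 overlapped in every Ksu library, ZNF264 had the highest mean cover, with 4.64%, 2.45%, 15.0% and 15.0%, and ZNF134 was the one highest in control 1, with 17.7%, 3.57%, 3.86% and 9.86%. ZNF93, whose protein binds LINE-1 retrotransposons, had 3.43%, 0.676%, 1.27% and 22.3%, and ZNF91, whose protein binds SVA elements, had 0%, 2.99%, 4.20% and 11.3%. For ZNF93 control 1 lay above succinate 1, and ZNF91 was higher in both succinate libraries than in both control libraries.

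The clusters were compared by the Ksu cover of their ZNF genes. As deposited, control 1, with the fewest peaks, was lowest and succinate 2, with the most, was highest in each of the 10. Succinate 1 was above control 2 in 7, and control 2 was above succinate 1 in the ZNF554 to ZNF77 cluster (2.53% and 1.37%), the ZNF101 to ZNF254 cluster (3.68% and 3.15%) and the ZNF302 to ZNF792 cluster (3.50% and 3.14%). The ZNF628 to ZNF835 cluster had the highest cover with succinate, 6.51% and 14.2%, after 0.227% and 2.30% in control. The ZNF554 to ZNF77 cluster had the lowest, 1.37% and 6.15%. The large ZNF101 to ZNF254 cluster held 11 of the 25 genes overlapped in all libraries and 2 of the 44 overlapped with succinate alone. The ZNF175 to ZNF331 cluster held 4 and 13, and the ZNF264 to ZNF446 cluster held 3 and 11. With equal numbers of peaks that order of the libraries did not hold: control 1 was lowest in 4 clusters and succinate 2 highest in 5. In the ZNF264 to ZNF446 cluster the cover was then 0.885% and 0.259% in control and 1.45% and 1.36% with succinate, and in the ZNF101 to ZNF254 cluster it was 0.788% and 0.639%, then 0.993% and 1.42%. Both succinate libraries were above both control libraries in 8 of the 10 clusters with equal numbers and in 7 as deposited. This order was not limited to ZNF clusters. The summed bodies of the other genes of the chromosome showed it in both settings. With equal numbers they had 0.458% and 0.281% in control and 1.33% and 1.37% with succinate. As deposited they had 0.458% and 2.92%, then 4.72% and 10.7%. All genes showed it as deposited but not with equal numbers, with 2.46% and 1.56%, then 2.39% and 2.54%. The ZNF554 to ZNF77 cluster had no cover in any library with equal numbers.

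**Figure D5:**
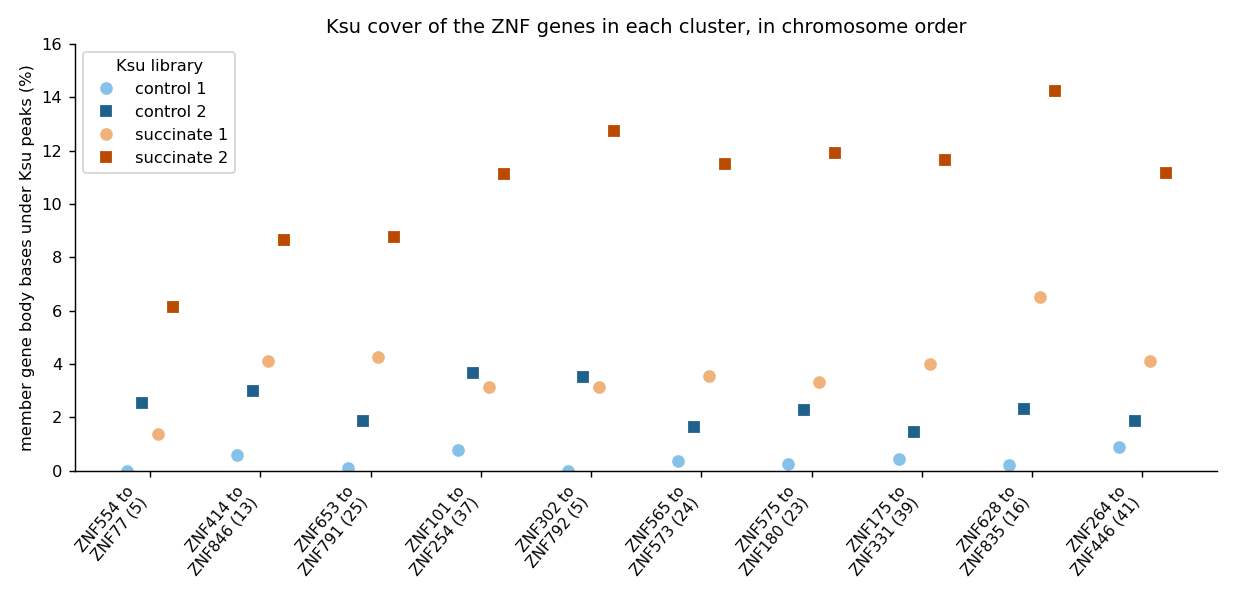
Percent of ZNF gene body bases under Ksu peaks (vertical axis) in each of the 10 clusters in chromosome order (horizontal axis, number of genes in brackets), with 1 point for each library. With peaks as deposited, succinate 2 is highest and control 1 lowest in every cluster, and succinate 1 lies below control 2 in 3 of them.

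Partners of KRAB proteins were read from a fixed list of 19 genes, among them TRIM28, SETDB1, the heterochromatin proteins CBX1, CBX3 and CBX5, and the HUSH complex genes TASOR, MPHOSPH8 and PPHLN1. An H3K27me3 peak overlapped 0 of the 19 in any library, beside 25.0% of all genes. Ksu peaks overlapped 5, 18, 14 and 18 of them, beside 34.8%, 71.1%, 72.2% and 84.4% of all genes, with 5 in all 4 libraries beside 31.7%. TRIM28, a short gene of 6652 bp on chromosome 19, was the one without a Ksu peak in any library. SETDB1 had a Ksu cover of 0%, 2.93%, 5.76% and 7.90%. Of 12 hepatocyte genes, 0 had H3K27me3 in any library and 2, 8, 7 and 9 had Ksu. Read against the same shares of all genes, these counts do not identify the line.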

How the data were processed

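CUT&Tag libraries of H3K27me3 and Ksu were read as peak lists, 1 for each of the 8 libraries. Peaks were called with SEACR on the hg38 build, per the submitters' processing notes, and the deposited lists carry its stringent mode in their names. The deposited signal per peak is a total and a highest value in units the authors scaled per library. The aligner, the SEACR version, the threshold, the control track and the scaling are not given in the sources used here.

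Peaks on the 24 chromosomes were intersected with RefSeq GRCh38.p14 gene bodies (Python 3.11.15, numpy 2.4.6, pandas 2.3.3, matplotlib 3.10.9), and the script was tested on simulated data. Bases shared by overlapping genes count for each gene. Libraries were grouped by the labels. The ratio of ZNF to other cover was taken as log2 per library. Equal numbers keep the peaks of highest total signal, and the common floor keeps peaks at or above the highest floor in steps. Named were the genes with any H3K27me3 cover (up to 10), the 5 with the highest mean Ksu cover, up to 5 overlapped in a single treatment, the longest and shortest, cluster ends and the KRAB partner list. The members and lists were chosen with earlier results of these data known. Samples labelled as biological replicates may share culture conditions, so their spread is that between these libraries.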

Additional observations from a re-analysis of the deposited data

How the results depend on the processing

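Over 10 results, 92 alternatives were computed: 65 kept the value within the spread between libraries or within 1.5 times the count, 22 moved it further and 5 moved it further with a change of sign. Values near 0 that crossed 0 within the spread, such as those of the Ksu ratio with a library left out, stand among the 65. So do the replicate block differences, which could not change, and counts of 0 that stayed at 0. The 65 is thus not a measure of how robust the results were. The Ksu ratio with the highest 50% of peaks, equal numbers and a common floor changed sign beyond the spread and stands among the 5. The low H3K27me3 cover of ZNF genes stood at a log2 ratio of -6.23 among genes of 10 to 50 kb and -5.92 without ZNF536. It was -3.25 against all other protein-coding genes, and leaving out each library gave -4.28 to -3.39. The treatment difference of this ratio was 0.036 with the highest 50% of peaks. It was -0.93 with equal numbers and -0.93 with a common floor, the treatments not overlapping in these 2 settings. With equal numbers the cover of the ZNF genes itself overlapped between treatments. With a library left out the difference in the ratio was -2.05 to -0.32. The count with H3K27me3 in all 4 libraries was 1 with the highest 50% of peaks, 1 when presence needed 10% of the gene body, and 2 to 2 with a library left out. The count in succinate alone was 0 to 1, and in control alone 0 to 0.

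The Ksu ratio of ZNF to other genes was 0.19 with the highest 50% of peaks, 0.19 with equal numbers and 0.38 with a common floor, and -1.04 against all other protein-coding genes. Leaving out a library gave -0.095 to 0.028. Its treatment difference was -0.29, -0.46 and -0.42 under the first 3 settings, 1.29 against all other protein-coding genes, and -0.23 to 0.13 with a library left out. The count with Ksu in all 4 libraries was 5 with the highest 50% of peaks, 3 with equal numbers, 0 with a common floor and 0 at 10% presence. It was 25 to 119 with a library left out, the 119 without control 1. The count with succinate alone was 17, 10 and 8 with equal numbers, a common floor and 10% presence. It was 48 to 138 with a library left out, the 138 without control 2 and 70 without succinate 1. The count with control alone was 3 with equal numbers and 0 to 4 with a library left out. Leaving out a library asks fewer libraries for a peak, so these counts can rise by construction, and the cause of the other shifts was not tested. For either mark, shares of all genes are not given beside the counts with the highest 50% of peaks, a common floor, 10% presence or a library left out. Those counts therefore do not show whether ZNF genes differed from other genes. The comparison with all other protein-coding genes and the one without ZNF536 were added after seeing the data.

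The labels number the replicates 1 and 2 without stating a shared culture or day. With these numbers as a replicate block the mean differences cannot change in this balanced design and were -1.19 for H3K27me3 and -0.050 for Ksu. The SD was 0.39 between the same-numbered H3K27me3 differences, -0.91 and -1.46, and 0.42 between the Ksu differences, -0.35 and 0.25. Deviations of same-numbered libraries correlated with r = 0.37 and 0.061 across 20037 genes, which are not independent replicates. Peaks weaker than a library's floor are not listed, so a gene at 0 had no called peak, which does not show that the mark was absent.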
